A study of Mus musculus with 24 samples.

Results

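Xenobiotic metabolism genes of the lung were taken here as 7 named genes: the cytochromes P450 Cyp1a1, Cyp1b1, Cyp2e1, Cyp2f2 and Cyp4b1, the paraoxonase Pon1 and the aldehyde dehydrogenase Aldh1a1. Their members were all probe sets that the array annotation assigns to any of the 7 genes, which gave 11 of the 12422 probe sets that are not controls. Of the 11, 8 were bright enough to be tested, among 8710 probe sets tested in all. The other 3 are second probe sets of Cyp1a1, Cyp1b1 and Aldh1a1 that were dim in every group, so each of the 7 genes was tested through at least 1 probe set.

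The arrays measured total RNA of whole mouse lung, and the series title names the genetics of sensitivity to pulmonary fibrosis as the subject. C57BL/6J and BALB/c mice, 2 inbred strains, were given bleomycin into the trachea at 1.5 U per kg or saline, and the lungs were frozen after 24 h, 72 h or 14 d. Bleomycin is an antitumour drug that breaks DNA and scars the lung of mice. The 12 groups of strain, treatment and time held 2 arrays each, 24 in all, marked a and b in the titles. No genotype other than the strain, no age and no sex was given in the labels. Whether these letters stand for different animals or pools is not stated, so every p-value measures only the spread between these arrays, which may be technical.

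Cytochromes P450 put an oxygen atom into foreign compounds and some lipids, which makes them easier to conjugate and excrete and sometimes makes them toxic. In mouse lung much of this activity lies in club cells of the airways and, for Cyp1a1, in endothelium, where the aryl hydrocarbon receptor switches the gene on. Esterases such as Pon1 and aldehyde dehydrogenases such as Aldh1a1 handle lactones, organophosphates, reactive aldehydes and retinal.

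Some control arrays stood apart. The MHC class II gene H2-Ea, which C57BL/6J mice do not express, gave 4821.3 and 3622 in the C57BL/6J saline 72 h group, whereas its C57BL/6J values elsewhere ran from 25.6 to 166.1. It gave 89.5 and 48.3 in the BALB/c saline 72 h group, whereas BALB/c values elsewhere ran from 2917 to 6068.2. The 4 saline arrays of 72 h therefore went against their strain labels. The descriptions of the arrays titled BALB/c saline 72 h also name bleomycin, those of BALB/c saline 24 h name either treatment, and the titles were followed. The brightest probe set reached 78641 and 43230 on the C57BL/6J saline 24 h arrays, against 6888 to 21462 on the rest. The titles of the C57BL/6J saline 24 h arrays end in s1 and those of all other arrays in s2 or s2a, a tag that the titles do not explain. Below, most member results that use these 6 arrays, the gene lists and the cell markers are also given without them, a setting chosen after the data were seen. There the C57BL/6J saline arrays of 14 d served as the control at every time. For BALB/c lungs the saline arrays of 24 h and 14 d together served as the 72 h control. The BALB/c 24 h arrays, whose descriptions name either treatment, were kept. Means over both strains, added after the values were seen, do not change if the strain labels of the 72 h saline arrays are exchanged.

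The lung's own markers differed widely in level. Slc34a2, a phosphate transporter of alveolar type 2 cells, lay between 4955 and 16101, and Scgb1a1, the club cell secretory protein and the single one of 6 club cell markers on the array, between 128.7 and 54857. Sftpc, the surfactant protein that defines alveolar type 2 cells, ranged from 5.78 to 78641 with a median of 512.6, and Sftpd from 39.4 to 269. Of the liver markers that could accompany Pon1 or Cyp2e1, Alb reached 1737 and Ttr 289.9 at their highest, while Apoa1 lay between 22.7 and 87.6 and Fgb between 2.97 and 57.4.

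Cyp1a1 and Pon1 were lower after bleomycin than after saline in both strains at every time, with no overlap of arrays in any of the 6 comparisons of strain and time. Averaged over both strains and the 3 times, Cyp1a1 fell by 1.22 ± 0.10 on the log2 scale (SE) and Pon1 fell by 1.27 ± 0.15, that is 2.33-fold and 2.41-fold lower. Cyp2f2, the main P450 of mouse club cells, fell by 0.75 ± 0.12 over the same comparison. Cyp1b1 and Cyp2e1 were called in none of the 25 comparisons. The limma adjusted p of the both-strain means was 1.3e-06 for Cyp1a1, 3e-05 for Pon1 and 0.0006 for Cyp2f2. Without the 6 arrays that stand apart, Cyp1a1 and Pon1 kept these calls and Cyp2f2 did not. All folds are on the scale of log2(intensity + 91.7), which understates changes of dim probe sets.

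**Figure D1:**
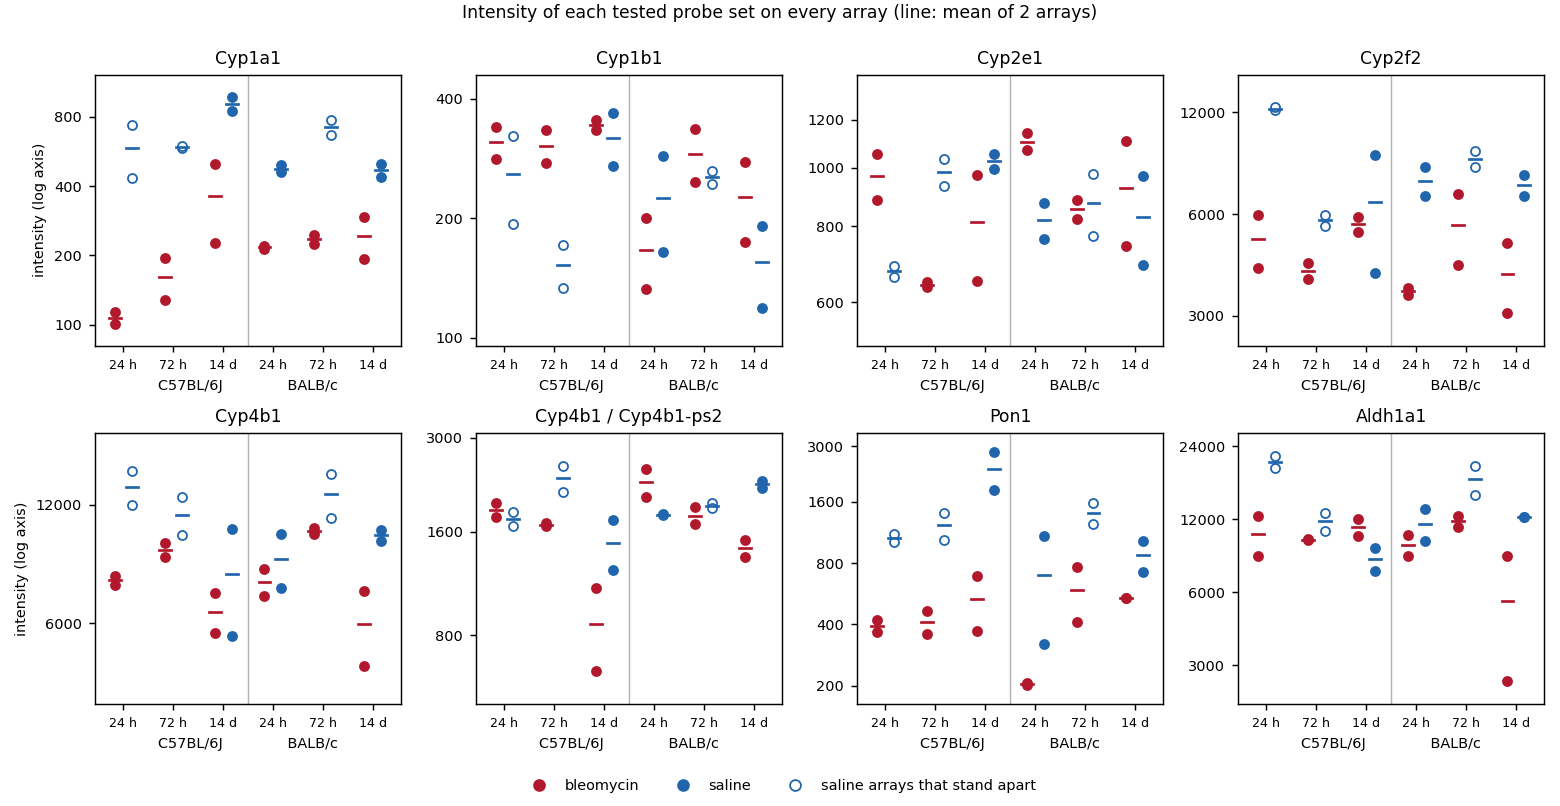
Intensity (log axis, arbitrary units) of the 8 tested probe sets on each of the 24 arrays, with bleomycin in red to the left of saline in blue for each strain and time. Points are arrays, short lines are means of 2 arrays, and open points are the 6 saline arrays that stand apart. In the Cyp1a1 and Pon1 panels both red points lie below both blue points in each of the 6 pairs, while the Cyp1b1 and Cyp2e1 panels show no such order.

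Cyp1a1 oxidises polycyclic aromatic hydrocarbons and is the standard target of the aryl hydrocarbon receptor. RefSeq places the gene at chr9:57687928-57703824 (GRCm38.p6, plus strand). The 250 bases before the transcript start that RefSeq's promoter table gives for it and for Cyp1b1, the other classic target of this receptor, are printed because Cyp1a1 moved and Cyp1b1 was not called, and those of Pon1 because it moved in the same 6 comparisons as Cyp1a1. Capitals mark the core letters that the receptor binds (GCGTG, or CACGC where it reads on the other strand) and the TATA box letters TATAA within the last 50 bases. The windows are chr9:57697363-57697612 (plus strand) for Cyp1a1, chr17:79715062-79715311 (minus strand) for Cyp1b1 and chr6:5193947-5194196 (minus strand) for Pon1, read 5′ to 3′ along the gene. The Cyp1a1 window lies inside the gene span above, which reaches further upstream than the start used here, and the Pon1 window overlaps the outer end of its gene record.
Cyp1a1: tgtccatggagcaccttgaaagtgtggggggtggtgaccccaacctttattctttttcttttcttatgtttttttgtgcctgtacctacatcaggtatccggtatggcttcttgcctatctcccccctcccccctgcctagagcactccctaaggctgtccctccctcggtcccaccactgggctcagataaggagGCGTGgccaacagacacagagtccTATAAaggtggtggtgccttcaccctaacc
Cyp1b1: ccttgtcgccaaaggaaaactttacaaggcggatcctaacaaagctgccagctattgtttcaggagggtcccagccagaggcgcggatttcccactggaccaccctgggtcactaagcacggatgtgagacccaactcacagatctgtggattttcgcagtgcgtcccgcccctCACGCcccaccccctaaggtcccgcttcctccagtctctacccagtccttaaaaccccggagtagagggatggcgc
Pon1: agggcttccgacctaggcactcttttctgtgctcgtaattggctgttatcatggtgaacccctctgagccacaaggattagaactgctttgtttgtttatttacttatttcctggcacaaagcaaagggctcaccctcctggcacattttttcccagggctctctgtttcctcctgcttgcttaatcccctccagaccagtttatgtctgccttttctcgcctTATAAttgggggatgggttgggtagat

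The core began 54 bases before that transcript start in Cyp1a1 and 76 bases before it in Cyp1b1, and no copy of it stood in these windows of the other 5 genes. Over all 32851 promoters of the table, 28.2% held at least 1 copy on either strand. TATAA stood near the start of Cyp1a1, Cyp2e1, Cyp4b1 and Pon1, against 4.9% of all promoters. A match is a description of the letters and says nothing of binding in these lungs.

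In C57BL/6J lungs at 24 h, Cyp1a1 was at 101 and 113 after bleomycin, against 738 and 432 after saline. At 72 h it was at 128 and 194 after bleomycin, against 583 and 599 after saline. At 14 d it was at 227 and 497 after bleomycin, against 849 and 976 after saline. Both bleomycin arrays lay below both saline arrays at each time, and the 14 d b array after bleomycin came nearest to the saline range. The changes were -1.73 ± 0.25 at 24 h (limma adjusted p = 0.001), -1.45 ± 0.25 at 72 h (0.002) and -1.21 ± 0.25 at 14 d (0.0081), or 3.32-fold, 2.73-fold and 2.32-fold lower. Without the 6 arrays that stand apart, with the saline arrays of 14 d as the control throughout, the changes at 24 h and 72 h were -2.34 (0.00045) and -2.0 (0.00058). The 14 d call was lost without bleomycin array a (-0.77, adjusted p 0.179) and without saline array b (-1.12, 0.0656).

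In BALB/c lungs at 24 h, Cyp1a1 was at 213 and 220 after bleomycin, against 458 and 495 after saline. At 72 h it was at 225 and 246 after bleomycin, against 776 and 666 after saline. At 14 d it was at 295 and 193 after bleomycin, against 439 and 499 after saline. The arrays again did not overlap, and the bleomycin arrays of the 3 times lay close together. The change passed the test at 72 h (-1.31 ± 0.25, limma adjusted p = 0.0103) and did not at 24 h (-0.88 ± 0.25, 0.135) or 14 d (-0.76 ± 0.25, 0.058). Its mean over the 3 times was -0.98 ± 0.15 (0.00097), and -0.81 (0.012) without the arrays that stand apart. With the strain labels of the 72 h saline arrays exchanged, the 72 h change was -1.06 and no longer called (0.179), and without those 4 arrays it was -0.79 (0.0577).

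Ordered by mean, the 6 saline groups of Cyp1a1 came above the 6 bleomycin groups, from C57BL/6J saline 14 d at 913 ± 90.1 (SD, n = 2) down to C57BL/6J bleomycin 24 h at 107 ± 8.63 (SD, n = 2). Between these ends, the arrays of neighbouring groups overlapped from C57BL/6J saline 72 h (591) through BALB/c bleomycin 72 h (235), while BALB/c bleomycin 24 h (217), C57BL/6J bleomycin 72 h (161) and C57BL/6J bleomycin 24 h separated from each other. After saline at 14 d, Cyp1a1 was 0.84 ± 0.25 higher on the log2 scale in C57BL/6J than in BALB/c lungs (limma adjusted p = 0.0346), a call lost on leaving out any 1 of the 4 arrays (0.75 to 0.93). After bleomycin in C57BL/6J lungs it was 1.12 ± 0.25 higher at 14 d than at 24 h (0.0118), and 0.68 without array b of 14 d, where it was not called (0.0784). The second probe set of Cyp1a1 lay between 19.4 and 215 on all arrays, under the testing threshold of 225.7, with medians of 99.1 after bleomycin and 81.4 after saline, and was not tested.

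The strains did not differ in their Cyp1a1 response by the test of that difference: C57BL/6J minus BALB/c was -0.48 for the mean over times (limma adjusted p = 0.22). Without the 6 arrays that stand apart it was -1.04 (0.0382), a call that rests on the C57BL/6J saline 14 d arrays serving as the control of all 3 times.

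Pon1 encodes paraoxonase 1, known as a liver-made serum enzyme that travels on HDL and hydrolyses organophosphates and lactones. At 24 h in C57BL/6J lungs it was at 366 and 419 after bleomycin, against 1116 and 1013 after saline. At 72 h it was at 467 and 357 after bleomycin, against 1037 and 1415 after saline. At 14 d it was at 373 and 691 after bleomycin, against 2799 and 1832 after saline. The 14 d saline arrays were the brightest of the series for this gene, and the bleomycin arrays of the 3 times spanned a common range. The change was -1.97 ± 0.37 at 14 d (limma adjusted p = 0.0046), -1.38 ± 0.37 at 72 h (0.0336) and -1.26 ± 0.37 at 24 h, where it was not called (0.0925). Their mean, -1.54 ± 0.22 (0.00016), was 2.90-fold lower after bleomycin, and it was -2.16 (0.0024) without the arrays that stand apart. The 14 d call was lost without bleomycin array a (-1.59, 0.101). The 72 h call was lost without any 1 of its 4 arrays (-1.17 to -1.59, adjusted p up to 0.244) and with no filter on dim probe sets (0.0507).

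In BALB/c lungs at 24 h, Pon1 was at 203 and 206 after bleomycin, against 1083 and 319 after saline. At 72 h it was at 410 and 768 after bleomycin, against 1583 and 1242 after saline. By 14 d it was at 542 and 541 after bleomycin, against 1032 and 724 after saline. The groups did not overlap at any time, but at 24 h saline array b lay much nearer to the bleomycin arrays than to saline array a. No single time was called (-1.23, -1.19 and -0.60, each ± 0.37, with limma adjusted p of 0.156, 0.180 and 0.308). The mean over times was -1.0 ± 0.22 (0.0117), and -0.71 without the arrays that stand apart, where it was not called (0.119).

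After saline at 14 d, Pon1 was 1.30 ± 0.37 higher on the log2 scale in C57BL/6J than in BALB/c lungs (limma adjusted p = 0.0272), a call lost without C57BL/6J saline array a (1.01, 0.208). The strain difference in the bleomycin effect was not called for the mean over times (-0.53, 0.37) or at 14 d (-1.37, 0.12). The summed intensity of 6 liver markers on the C57BL/6J saline 14 d arrays was 2220 and 333, against 254.5 to 902.1 on the other saline arrays and 193.5 to 1258 after bleomycin. Array a thus had both the highest Pon1 and the highest liver marker sum, and its part in the Pon1 result was not tested. Without that array the 14 d change in C57BL/6J lungs was -1.67 and no longer called (0.0544). Pon3, a paraoxonase of the same cluster, and Pon2 were not called in the mean over both strains (-0.10 and 0.10).

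**Figure D2:**
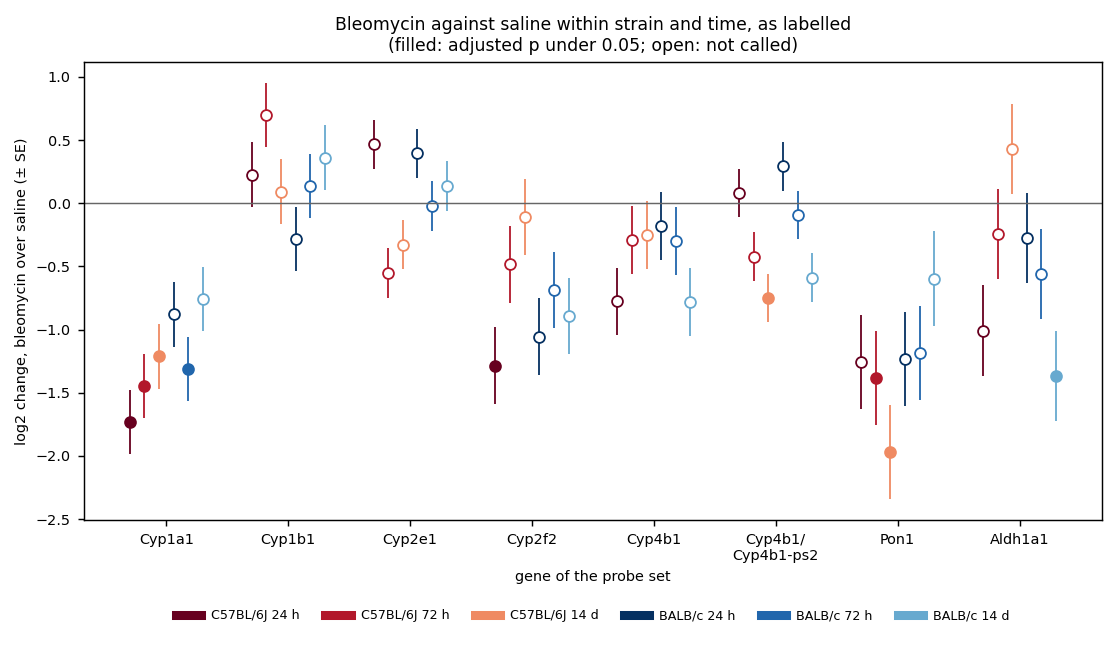
Log2 change, bleomycin over saline, of each tested probe set (x axis) in the 6 comparisons of strain and time, with error bars of 1 SE from the model. Filled points passed an adjusted p of 0.05 and open points did not. All 6 points of Cyp1a1 and of Pon1 lie below 0, with 4 and 2 of them called.

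Cyp2f2 is the P450 that makes mouse club cells prone to injury by naphthalene. At 24 h in C57BL/6J lungs it was at 4153 and 5979.9 after bleomycin, against 12157 and 12395.5 after saline. At 72 h it was at 3863 and 4303 after bleomycin, against 5533 and 5956 after saline. By 14 d it was at 5861 and 5316 after bleomycin, against 8988 and 4026 after saline, where the groups overlapped. The fall was called at 24 h (-1.28 ± 0.30, limma adjusted p = 0.0347) and over the 3 times (-0.63 ± 0.17, 0.0233). With the saline arrays of 14 d as the control instead, the 24 h change was -0.27 (0.685), so that call rests on the C57BL/6J saline 24 h arrays. On the same 2 arrays Scgb1a1 was at 54857 and 37086, against 128.7 to 21462 on the rest, and the summed red blood cell markers were at 68848 and 40317, against 2304 to 16012.

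In BALB/c lungs the 24 h and 14 d controls do not stand apart, though the descriptions of the 24 h controls name either treatment. Cyp2f2 there was at 3461 and 3640.0 after bleomycin at 24 h, against 8261 and 6762 after saline. At 72 h it was at 4228 and 6874 after bleomycin, against 8263 and 9219 after saline. By 14 d it was at 4936 and 3055 after bleomycin, against 7813 and 6804 after saline. No groups overlapped in this strain. The changes of -1.06, -0.69 and -0.89 (each ± 0.30) were not called one by one (limma adjusted p = 0.134, 0.415 and 0.0594), and their mean of -0.88 ± 0.17 was (0.0075). Without the arrays that stand apart the BALB/c mean was -0.80 (0.038), the C57BL/6J mean -0.31 (0.55) and the mean over both strains -0.55 (0.0612).

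Scgb1a1 is named beside Cyp2f2 because both mark club cells. In BALB/c lungs it averaged -1.80 over the 3 times (limma adjusted p = 0.038) and was at 193.5 and 128.7 after bleomycin at 14 d, against 2476 and 3922 after saline. Without the arrays that stand apart the BALB/c mean was -1.31 and not called. In C57BL/6J lungs its change was -4.25 at 24 h (0.013), against the bright controls named above, and at 72 h and 14 d it was 1.16 (0.486) and 2.78 (0.0542), neither called. In whole lung, fewer cells of a type and less RNA per cell cannot be told apart, and the part of club cell numbers in the Cyp2f2 values was not tested.

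Aldh1a1 oxidises retinal to retinoic acid and clears lipid aldehydes. Its main probe set lay between 2584 and 12356 after bleomycin, with a median of 10053, against 7352 to 21844 with a median of 12527 after saline. The BALB/c lungs of 14 d were at 8474 and 2584 after bleomycin, against 12273 and 12227 after saline, a change of -1.37 ± 0.36 (limma adjusted p = 0.0194). The C57BL/6J lungs of 14 d were at 12009.8 and 10189.8 after bleomycin, against 9130.1 and 7352 after saline, the reverse order, with a change of 0.43 that was not called. The strains differed in this effect by 1.80 ± 0.51 (0.0399), and after bleomycin at 14 d Aldh1a1 was 1.22 ± 0.36 higher in C57BL/6J than in BALB/c lungs (0.0292). Both rest on bleomycin array b of BALB/c at 14 d, without which the BALB/c change was -0.53 (0.31) the difference in effect 0.96 (0.14) and the difference after bleomycin 0.38 (0.395).

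On that array 1174 probe sets were brighter than Aldh1a1, against 2 to 100 on each of the others, and its brightest probe set, at 6888, was the lowest maximum of the series. The Aldh1a1 values of the other 11 bleomycin arrays lay between 8454 and 12356. The mean over times in BALB/c lungs was -0.73 ± 0.21 (limma adjusted p = 0.045) and over both strains -0.50 ± 0.15 (0.0271), and without the arrays that stand apart these were -0.55 (0.208) and -0.11 (0.804). In C57BL/6J lungs after saline Aldh1a1 was 1.32 ± 0.36 lower at 14 d than at 24 h (0.0487), which again sets the bright 24 h controls against the others. The second Aldh1a1 probe set was dim, between 40.3 and 229. Aldh1a7, a close paralog that array probes may share, fell by 1.02 in C57BL/6J lungs at 14 d (0.026).

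Cyp4b1 activates aromatic amines and ipomeanol in the lung and also works on fatty acids. Its own probe set lay between 4656 and 10480.3 after bleomycin, with a median of 7721, against 5563 to 14677 with a median of 10389.7 after saline. It was called in the mean over both strains (-0.43 ± 0.11, limma adjusted p = 0.0136), and not in either strain alone (-0.44, 0.0695, in C57BL/6J and -0.42, 0.116, in BALB/c lungs). Without the C57BL/6J saline 24 h arrays, at 14677 and 12030, the both-strain mean was -0.30 and not called (0.124), and without all 6 arrays that stand apart it was -0.13 (0.647). With quantile normalization it was -0.14 (0.417).

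A second probe set, shared by Cyp4b1 and the pseudogene Cyp4b1-ps2, behaved differently. The C57BL/6J lungs of 14 d were at 631 and 1098 after bleomycin, against 1240.5 and 1735 after saline (-0.75 ± 0.19, limma adjusted p = 0.024). It was 1.07 ± 0.19 lower at 14 d than at 24 h after bleomycin in that strain (0.0024), and 0.71 ± 0.19 lower in C57BL/6J than in BALB/c lungs after bleomycin at 14 d (0.02). The 14 d call against saline was lost without bleomycin array a (-0.39, 0.359) and without saline array b (-0.52, 0.22). Its means of -0.36 in C57BL/6J lungs (0.0356) and -0.25 over both strains (0.0409) were not called without the arrays that stand apart (-0.09 and -0.12). Which of the 2 loci carries the signal cannot be told apart by this probe set.

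Cyp1b1, which metabolises oestradiol and hydrocarbons in stroma, lay between 132.5 and 353.6 after bleomycin, with a median of 280.5, against 119.2 to 368.7 with a median of 218.5 after saline. Its change in the mean over both strains was 0.21 ± 0.10 (limma adjusted p = 0.20), positive in 5 of the 6 comparisons of strain and time. At 72 h in C57BL/6J lungs it was at 276 and 334 after bleomycin, against 171 and 133.7 after saline (0.70 ± 0.25, 0.116), and that control is one of those against their label. The values sit close to the testing threshold of 225.7, which 15 of the 24 arrays passed, and the second probe set of Cyp1b1 was at 0.206 to 13.7 and not tested.

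Cyp2e1, the ethanol-inducible P450, had nearly equal ranges: 634 to 1140.1 after bleomycin, with a median of 885.0, against 661 to 1053 with a median of 904 after saline. Its change averaged 0.02 ± 0.08 over both strains (limma adjusted p = 0.92). Single comparisons went both ways, from -0.55 ± 0.20 in C57BL/6J lungs at 72 h (0.108) to 0.47 ± 0.20 at 24 h (0.268).

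**Figure D3:**
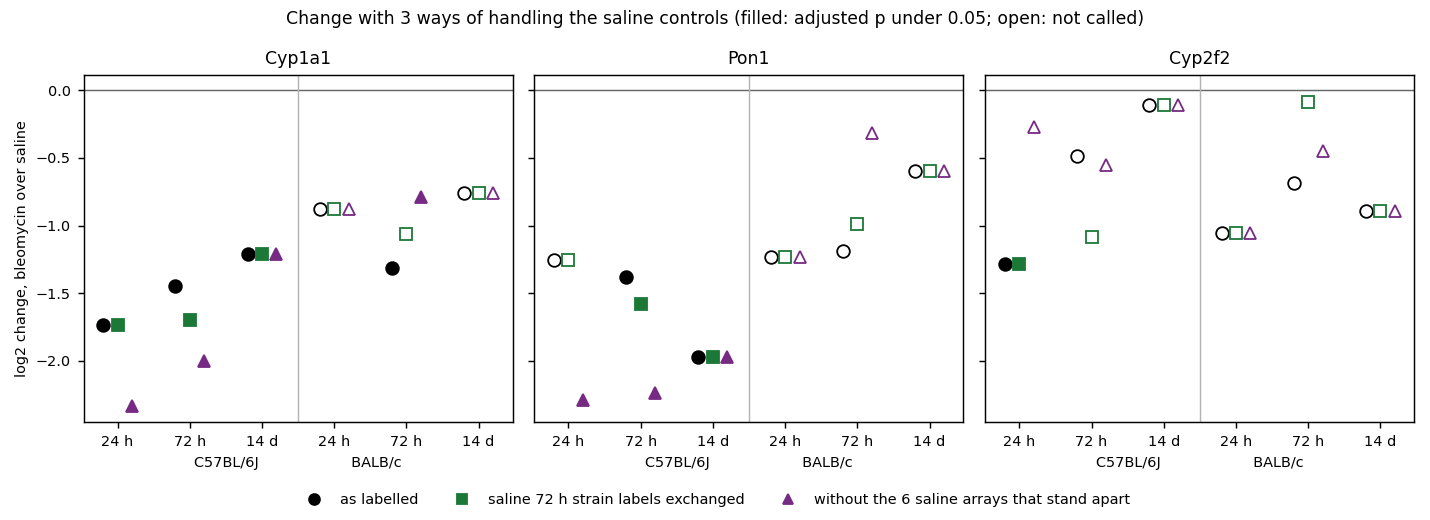
Log2 change, bleomycin over saline, of Cyp1a1, Pon1 and Cyp2f2 in each strain and time with the arrays as labelled (circles), with the strain labels of the 72 h saline arrays exchanged (squares) and without the 6 saline arrays that stand apart (triangles). Filled points passed an adjusted p of 0.05. Every point of the 3 genes lies below 0, and the largest shifts between settings are those of the C57BL/6J 24 h and the 72 h comparisons.

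Counted over the 8 tested probe sets of the 7 genes, bleomycin against saline gave 2 lower and 0 higher in C57BL/6J lungs at 24 h, where 2.23% of all probe sets tested were called. It gave 2 lower at 72 h (6.62% of all called), 3 lower at 14 d (7.43%) and 4 lower in the mean over times (14.1%), with 0 higher in each. For BALB/c lungs 0 were called at 24 h (0.218% of all), 1 was lower at 72 h (1.32%), 1 lower at 14 d (13.3%) and 4 lower in the mean over times (6.04%), again with 0 higher. Beside the 0 at 24 h in BALB/c lungs stand 3 members, Cyp1a1, Cyp2f2 and Pon1, at an unadjusted limma p under 0.05, as were 13.6% of all probe sets. The mean over both strains called 6 lower and 0 higher, against 15.6% of all probe sets called in either direction. That count was 3 without the C57BL/6J saline 24 h arrays and 2, Cyp1a1 and Pon1, without all 6 arrays that stand apart, against 9.18% of all. At 72 h alone the mean over both strains called 2 lower, against 3.21%.

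The median change of the 8 probe sets was -0.47 in the mean over both strains, against 0.00 over all 8710. It was -0.40 against -0.01 in C57BL/6J and -0.58 against 0.03 in BALB/c lungs. These medians and the counts of overlap that follow use all arrays as labelled, among them the 6 saline arrays that stand apart. They are not given without those arrays, where only Cyp1a1 and Pon1 were called in the mean over both strains. Bleomycin arrays lay below saline arrays without overlap in all 6 comparisons of strain and time for 19 of 8710 probe sets (0.218%), and 2 of these 19 were members, Cyp1a1 and Pon1. Cyp2f2 did so in 5 of 6, Cyp4b1 and Aldh1a1 in 4, the shared probe set in 3, Cyp2e1 in 2 and Cyp1b1 in 0. Of all probe sets, 1.87% did so in at least 5, 6.36% in at least 4, 18.1% in at least 3 and 42.3% in at least 2 of the 6. The opposite order, bleomycin above saline without overlap, was seen in 2 comparisons for Cyp2e1 and in 1 each for Aldh1a1, Cyp1b1 and the shared probe set, and 76.2% of all probe sets had it in at least 1.

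Contrasts between strains and times called few members. The strain difference in the bleomycin effect called 0 of 8 at 24 h (0.023% of all called), 0 at 72 h (3.08%), 1 at 14 d (7.38%) and 0 in the mean over times (3.83%). After bleomycin, C57BL/6J against BALB/c called 0 at 24 h (1.87%), 0 at 72 h (1.64%) and 2 at 14 d (15.7%), namely Aldh1a1 and the shared Cyp4b1 probe set. After saline it called 0 in the mean over times (2.66%) and 2 at 14 d (14.8%), Cyp1a1 and Pon1. The means and the 72 h difference in effect include the 72 h saline arrays as labelled. The saline mean called 1 without them or with their strain labels exchanged. It called 2 without all 6 arrays that stand apart, where only 14 d is left. The mean strain difference in effect called 1 without all 6. The share at 14 d after saline among members is 2 of 8, which sits beside a high background.

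Within C57BL/6J lungs, 72 h against 24 h after bleomycin called 0 members (0.448% of all called) and 14 d against 24 h called 2 (8.68%), Cyp1a1 higher and the shared Cyp4b1 probe set lower. After saline, 14 d against 24 h called 1 in C57BL/6J (3.67%), Aldh1a1, and 0 in BALB/c lungs (1.26%). After bleomycin in BALB/c lungs, 72 h against 24 h called 0 (5.2%) and 14 d against 24 h called 0 (7.66%).

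The other cytochromes P450 and flavin monooxygenases formed a list of 49 genes, of which 28 were on the array and 17 tested. In the mean over both strains 3 were lower, 0 higher and 14 not called, where 15.6% of all probe sets were called, with a list median of -0.03 against 0.00 over all. Cyp2b10, a P450 induced through the constitutive androstane receptor, fell by 0.43 ± 0.09 (limma adjusted p = 0.0042). Fmo1 and Fmo5, flavin monooxygenases that oxidise nitrogen and sulfur compounds, fell by 0.41 ± 0.11 (0.0166) and 0.33 ± 0.10 (0.0375). In C57BL/6J lungs at 14 d these 3 fell by 0.83, 1.02 and 0.97, and in BALB/c lungs at 14 d Cyp2b10 fell by 0.75 (0.0355). None of the 17 was called higher in the mean of either strain. Without the arrays that stand apart 1 was lower over both strains, Cyp2b10 (-0.46, 0.0343), where 9.18% of all probe sets were called. Fmo1 (-0.25, 0.332) and Fmo5 (-0.45, 0.0576) were not called there.

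Of 40 esterases, epoxide hydrolases and aldehyde, alcohol and carbonyl enzymes, 28 were on the array and 22 tested. In the mean over both strains 2 were lower, 2 higher and 18 not called, where 15.6% of all probe sets were called, with a median of -0.12. Akr1b8, an aldo-keto reductase that reduces aldehydes, rose by 0.81 ± 0.09 (limma adjusted p = 1.9e-05) and was also called in C57BL/6J (0.97) and in BALB/c lungs alone (0.64). Cbr3, a carbonyl reductase, rose by 0.30 ± 0.09 (0.041). Ces1d, a carboxylesterase, fell by 0.47 ± 0.09 (0.0023), and Aldh3a2, which oxidises fatty aldehydes, fell by 0.23 ± 0.05 (0.0088). Without the arrays that stand apart 2 were higher, Akr1b8 (1.06, 0.000276) and the epoxide hydrolase Ephx1 (0.29, 0.0378), and 1 lower, Aldh3a2 (-0.33, 0.0151). In that setting 9.18% of all probe sets were called, and Cbr3 (0.22, 0.309) and Ces1d (-0.36, 0.0775) were not.

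Conjugating enzymes other than glutathione transferases had 25 genes, of which 6 were tested and 0 called over both strains by limma. Of these 6, 2 had an unadjusted p under 0.05, against 28.7% of all probe sets. Ugdh, which makes the glucuronic acid donor, rose in C57BL/6J lungs by 0.45 ± 0.11 (limma adjusted p = 0.014), and without the arrays that stand apart it was at 0.34 and not called (0.238). Receptors that sense foreign compounds and their partners had 15 genes and 10 tested. Over both strains 1 was lower, Ppara, the fatty acid receptor (-0.29 ± 0.09, limma adjusted p = 0.032), where 15.6% of all probe sets were called. The aryl hydrocarbon receptor Ahr itself changed by -0.34 (0.078) and its partner Arnt by -0.16 (0.23), neither of which was called, and Tiparp, another gene that this receptor induces, was at 0.12 (0.50). Of 16 genes of retinoid metabolism, 5 were tested and 1 was lower, the retinal reductase Dhrs3 (-0.27 ± 0.06, 0.0056), beside the same 15.6% of all. Without the arrays that stand apart Ppara (-0.37, 0.0317), Arnt (-0.38, 0.0449) and Dhrs3 (-0.40, 0.0075) were called lower, as 9.18% of all probe sets were called in either direction. Ahr was not called there (-0.28, 0.363). From 24 h to 14 d after bleomycin in C57BL/6J lungs, Tiparp rose by 1.55 ± 0.26 (limma adjusted p = 0.0012). In that contrast Cyp1a1 rose by 1.12 (0.0118), a call lost without array b of 14 d. Cyp1b1 was not called in it (0.11, 0.814). After bleomycin at 14 d, Ahr was called lower in C57BL/6J than in BALB/c lungs (limma adjusted p = 0.0375). The part of the receptor in these changes was not tested.

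**Figure D4:**
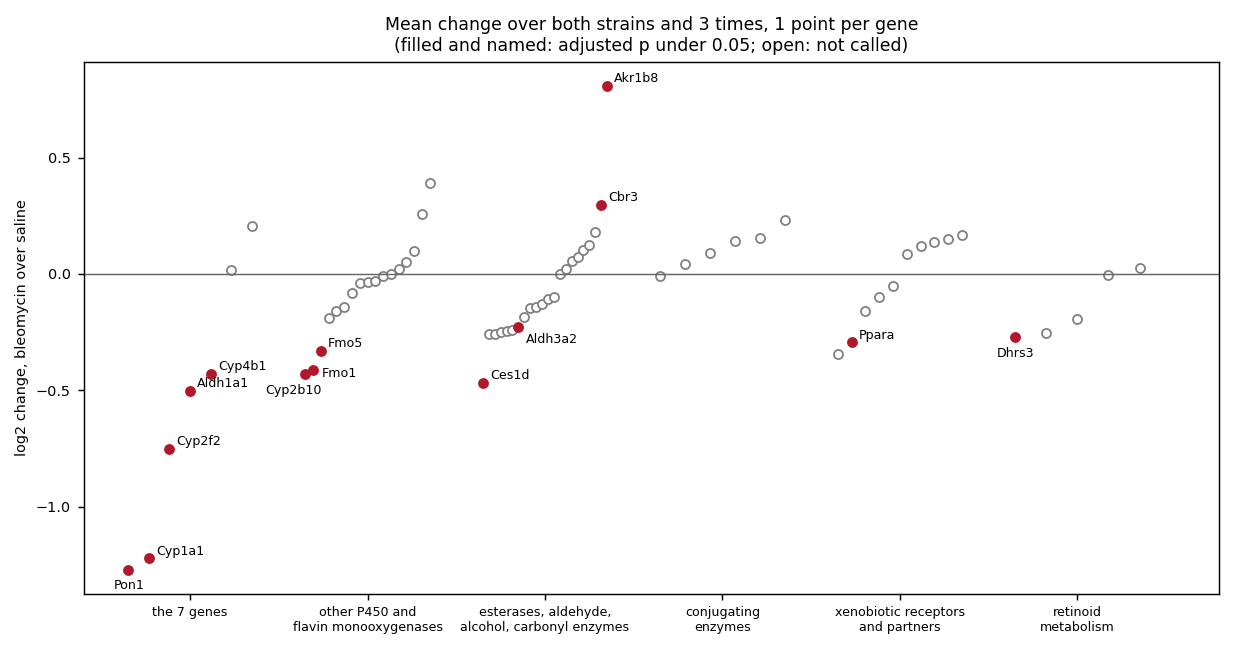
Mean log2 change, bleomycin over saline, over both strains and 3 times, with 1 point for each tested gene of the 7 genes and of 5 lists of related genes (x axis). Filled, named points passed an adjusted p of 0.05. Pon1 and Cyp1a1, at -1.27 and -1.22, are the lowest points shown, and Akr1b8 at 0.81 the highest.

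Markers of some cell types moved too and those of others did not, in a mean over both strains where 15.6% of all probe sets were called. The club cell marker Scgb1a1 (-0.95, limma adjusted p = 0.073) and the tested liver, adipocyte and red blood cell markers were not called there. Of 10 endothelial markers 7 were lower in the mean over both strains, with a median change of -0.30, and their summed intensity ranged from 29052 to 42579 after bleomycin, against 35896 to 71743 after saline, or 35896 to 46257 on the 6 saline arrays that do not stand apart. Of 6 alveolar type 2 markers 2 were lower and of 3 alveolar type 1 markers 2, while 0 of 3 ciliated cell markers were called. Of 7 heart muscle markers 5 were lower, their sum ranging from 6687 to 16774 after bleomycin, against 11227 to 17882 after saline. The C57BL/6J mean called 6 endothelial and 5 heart markers lower, where 14.1% of all probe sets were called. The BALB/c mean called 0 of each, where 6.04% of all were called. For Myh6, the cardiac myosin, the strains differed by -1.09 (limma adjusted p = 0.0011). These means include the 72 h controls that went against their strain labels. Of 6 fibroblast markers 3 were higher, all of them collagens, Col1a1 (0.35), Col1a2 (0.35) and Col3a1 (0.40). The fibroblast markers Pdgfra (-0.10), Dcn (-0.03) and Lum (0.02) were not called. Of 7 macrophage markers 3 were higher, among them Cd68 (0.58), and 1 lower, Lyz2 (-0.30). In C57BL/6J lungs at 24 h the endothelial genes Eng and Kdr were at -1.80 (0.0169) and -1.32 (0.0388), beside -1.73 for Cyp1a1. The controls there are the bright C57BL/6J saline 24 h arrays. From 24 h to 14 d after saline in that strain, Eng changed by -1.79 (limma adjusted p = 0.0203) and Cyp1a1 by 0.60 (0.196). That contrast uses the same bright arrays, and the other endothelial markers are not given for it.

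Without the arrays that stand apart, 9.18% of all probe sets were called over both strains. Of the 10 endothelial markers 2 were lower, with a median of -0.15, and Kdr (-0.20, limma adjusted p = 0.519) and Eng (-0.10, 0.79) were not called. The heart markers again had 5 lower. Of 5 alveolar type 2 markers tested 2 were lower, but the list median was 0.13, and the C57BL/6J mean called 1 higher and 1 lower. The fibroblast and macrophage markers had 1 higher each, Col1a2 (0.41, 0.0257) and Cd68 (0.50, 0.0195), and 0 of 3 alveolar type 1 markers were called. The part of these cell types in the members' results was not tested.

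The genes whose log2 values most resembled each member over the 18 arrays that do not stand apart are given as a description; these arrays share strains, treatments and scaling. Cyp1a1 was most like Aqp1 (Pearson r 0.86), Kcnk2 (0.85) and Adgre5 (0.83). Pon1 was most like Tiprl (0.86), Sri (0.85) and Unc50 (0.84), and Cyp2f2 most like Elovl5 (0.81), Hopx (0.79) and Ackr4 (0.79). Cyp4b1 was most like Cadm1 (0.90), Gja1 (0.90) and Nsmf (0.84), Cyp1b1 most like Krtcap2 (0.86), Cyhr1 (0.84) and Cdr2l (0.83), and Cyp2e1 most like Eef1a2 (0.82), Top3a (0.79) and Ring1 (0.79). Aldh1a1 was most like H2-K1, Cd74 and Tpt1 (0.97, 0.97 and 0.96).

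Among the members themselves, Cyp1a1 and Pon1 had the highest r, 0.75 over the 18 arrays and 0.81 over all 24. Aldh1a1 went with Cyp4b1 (0.69) and Cyp2f2 (0.56). With the club cell marker Scgb1a1, r was 0.78 for Aldh1a1, 0.54 for Cyp4b1 and 0.43 for Cyp2f2. It was -0.09 for Cyp1a1 and -0.23 for Pon1. With the alveolar type 2 marker Sftpc, r was 0.60 for Aldh1a1. The 18 arrays include bleomycin array b of BALB/c at 14 d, the lowest of the series for Aldh1a1 (2584) and for Scgb1a1 (128.7). The part of that array in the r values of Aldh1a1 was not tested. Cyp1b1 and Cyp2e1 went with no other member above 0.23.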

How the data were processed

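Total RNA of frozen mouse lungs was measured on 24 Affymetrix arrays, and the authors deposited 1 linear intensity per probe set, in a table that also names genes. How probes were summarised is not stated per the labels or the file headers. The mean between the 2nd and 98th percentile was 799.9 on every array, so the deposited intensities were used as already scaled. Array medians ran from 313.2 to 407.7. The number of arrays limits the precision.

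Groups followed the titles. Of 12488 probe sets 66 controls were left out, and of the other 12422, 10833 had 1 gene name, 396 several and 1193 none. Probe sets above 225.714 (the 40th percentile) on at least 2 arrays were kept. The log2 of intensity plus 91.6871 was fitted by limma 3.58.1 in R 4.3.3 with 12 group means and a variance trend, and p-values were adjusted by Benjamini-Hochberg over all 8710 probe sets, with calls at 0.05. Probe sets of a gene were kept separate for the 7 genes. On data simulated for BALB/c at 14 d over 8710 probe sets, 11.9%, 52.2% and 98.5% of changes of 0.5, 1 and 2 on the log2 scale were recovered.

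Named genes were all members, the genes of the related lists called in the mean over both strains and all times, and the 3 genes most like each member by Pearson's r. Further list genes and cell markers were named by choice, called or not. Many list genes called only in other comparisons are not named. The members, lists and comparisons were chosen with earlier results of these data known. Alternatives changed the offset, filter, normalization, trend, array weights, replicate block and controls, and left out each array; the lists and cell markers were refitted without the 6 arrays that stand apart. Promoters came from RefSeq (GRCm38.p6).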

Additional observations from a re-analysis of the deposited data

Results flagged for a closer look

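Aldh1a1 is singled out because the test of the difference between strains passed at 14 d. The bleomycin effect in C57BL/6J minus that in BALB/c lungs was 1.80 ± 0.51 on the log2 scale (limma adjusted p = 0.0399), with bleomycin above saline in C57BL/6J and below it in BALB/c lungs. Without bleomycin array b of BALB/c at 14 d the difference was 0.96 and was not called (0.14). The call was kept in 14 of 24 fits that left out 1 array and under 7 of 12 other settings.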

How the results depend on the processing

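Of 1186 recomputed values of called member results, 1006 kept the call, 180 lost it and 0 reversed direction. Of 5973 values of results not called, 5898 stayed uncalled, whatever their sign, and 75 gained a call. Counts of called members moved as follows. Without the saline 72 h arrays alone, each mean over times took only 24 h and 14 d. In C57BL/6J lungs, bleomycin against saline called 1 in place of 2 at 24 h with quantile normalization, no filter or no saline 72 h arrays, 1 in place of 2 at 72 h with no filter, and 2 in place of 4 in the mean over times without the saline 72 h arrays, without the C57BL/6J saline 24 h arrays or without all 6. In BALB/c lungs it called 0 in place of 1 at 72 h without the saline 72 h arrays or with their strain labels exchanged. At 14 d it called 2 in place of 1 with quantile normalization, the offset tripled, the 60th percentile filter, array weights or no C57BL/6J saline 24 h arrays, and in the mean 2 in place of 4 without the saline 72 h arrays or all 6. Over both strains the mean called 3 in place of 6 without the C57BL/6J saline 24 h arrays and 2 without all 6.

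The strain difference in effect called 0 in place of 1 at 14 d with quantile normalization, no filter, array weights, no saline 72 h arrays or without all 6, and 1 in place of 0 in the mean without all 6. C57BL/6J against BALB/c after bleomycin at 14 d called 1 in place of 2 with quantile normalization and 0 with array weights. After saline it called 1 in place of 0 in the mean without the saline 72 h arrays or with exchanged labels, 2 without all 6, and at 14 d 4 in place of 2 with quantile normalization or array weights and 1 without the saline 72 h arrays. Saline 14 d against 24 h in C57BL/6J called 0 in place of 1 with quantile normalization, the offset halved, array weights, no filter, the array letter as a replicate block, no variance trend or no saline 72 h arrays, and has no value without the C57BL/6J saline 24 h arrays. In BALB/c after bleomycin, 72 h against 24 h called 1 in place of 0 with quantile normalization or array weights, and 14 d against 24 h called 1 in place of 0 with quantile normalization. The cause was not tested.

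Leaving out 1 array at a time gave 1 to 3, 1 to 2, 0 to 3 and 2 to 5 calls at 24 h, 72 h, 14 d and in the mean in C57BL/6J, 0 to 1, 0 to 2, 0 to 4 and 3 to 5 in BALB/c, and 1 to 2 at 72 h and 4 to 6 in the mean over both strains. It gave 0 to 2 at 14 d and 0 to 1 in the mean for the strain difference in effect, 0 to 2 after bleomycin at 14 d between strains, 0 to 1 in the mean and 0 to 3 at 14 d after saline, 1 to 2 for C57BL/6J bleomycin and 0 to 2 for C57BL/6J saline at 14 d against 24 h, and 0 to 1 for BALB/c bleomycin at 72 h and at 14 d against 24 h. The deviations between arrays a and b had a median correlation of 0.006 over 66 pairs of groups. These correlations ran from -0.28 to 0.31, and 14 of them were over 0.1. With the letter as a replicate block Aldh1a1 in the BALB/c mean had a limma adjusted p of 0.0561. Cyp1a1 and Pon1 kept their calls over both strains without all 6 arrays (-1.33 and -1.44).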
